A study of Mus musculus with 6 samples.

Results

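Genes that act between the end of G2 and the end of cell division were followed in EO771 cells, a mouse mammary tumour line, with and without added lipocalin-2 (LCN2). The set held 42 genes of the 19832 in the deposited table, chosen by name for their known roles in mitosis. All 42 were found, and all 42 passed the filter for testing, a mean of at least 1 FPKM (fragments per unit of transcript length and of library size) over the 6 libraries. Their mean level ran between 10.8 FPKM (*Kif4*) and 224 FPKM (*Ube2c*) in Control cells.

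The tested libraries were 3 labelled LCN2, from cells given the recombinant protein, and the libraries they were set against were 3 labelled Control, with no added protein. Both groups were the same cell line, with no genetic change named in the labels. The labels give no dose, exposure time, batch or day, and nothing says that replicates were separate cultures, so each p-value reflects the spread among these libraries, part of which may be technical. The values are polyadenylated RNA levels of whole cultures. In such samples fewer cells in G2 or mitosis and less mRNA per cell cannot be told apart.

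As background, entry into mitosis is driven by the kinase CDK1 bound to cyclin A or cyclin B, which CDC25 phosphatases switch on. Polo-like and Aurora kinases then build the spindle, kinetochores attach chromosomes to it, and the spindle checkpoint holds the anaphase-promoting complex back until attachment is complete. Many of the genes involved are transcribed in G2 under the MYB-MuvB complex and FOXM1 and repressed in resting cells by the DREAM complex, through a promoter element called the cell cycle homology region (CHR). Such genes are widely used as a proliferation signature of tumours. LCN2 belongs to the lipocalins, small secreted carriers, and takes up siderophores that hold iron.

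The epithelial keratins *Krt8* and *Krt18* were high in every library, at 235 to 257 and 713 to 769 FPKM in LCN2 cells and 300 to 313 and 671 to 728 FPKM in Control cells. *Cdh1*, encoding E-cadherin, another epithelial marker, was at most 0.209 FPKM in any library. The 5 epithelial markers summed to 1181 to 1196 FPKM in LCN2 cells and 1222 to 1285 FPKM in Control cells. Of 5 mast cell markers in the table, 4 were listed at 0 in every library, and the list summed to 0.0524 to 0.153 FPKM in LCN2 cells and 0.0338 to 0.111 FPKM in Control cells. Leukocyte markers, 3 in the table, summed to 9.13 to 9.60 FPKM in LCN2 cells and 7.90 to 9.88 FPKM in Control cells, nearly all of it *Cd68*. Endothelial markers summed to 0.262 to 0.635 FPKM in LCN2 cells and 0.255 to 0.455 FPKM in Control cells, and fibroblast markers to 3.57 to 3.92 FPKM in LCN2 cells and 3.70 to 4.72 FPKM in Control cells. The part of these differences in the results was not tested.

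LCN2 replicate 2 differed from the other LCN2 libraries for these genes. It was the highest of the 3 LCN2 libraries for 38 of the 42 genes. For 22 it lay between the other LCN2 libraries and all 3 Control libraries. The same counts were not made over all genes, so they do not show a trait particular to this set. Leaving LCN2 replicate 2 out raised the calls over all genes too, to 3160 against 2216. Relative to the Control mean, the median deviation of the 42 genes was -0.21 in LCN2 replicate 1, -0.08 in LCN2 replicate 2 and -0.24 in LCN2 replicate 3, against 0.04, -0.05 and 0.0016 in Control replicates 1, 2 and 3 (log2 scale, after scaling between libraries). The same median over all genes tested was at most 0.0059 from 0 in every library. The scaling itself brings that median close to 0.

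The deposited rows also come in more than one number format, and the format goes with the contrast. Most rows hold values of at most 7 significant digits. Longer values, written out to 6 decimals, were found in 1170 of the 10309 rows tested (11.3%). A row with 6 decimals and every value under 10 FPKM has at most 7 digits. Such rows cannot be told from the first format and are counted with it. Among the 5995 genes that averaged 10 FPKM or more, the format with 6 decimals was found in 460 of 504 genes (91.3%) whose LCN2 mean as deposited was under 0.8 of the Control mean and in 299 of 348 (85.9%) above 1.25. It was found in 5 of 3189 (0.157%) with a ratio between 0.9 and 1.1. No label or header mentions this, and whether these rows were processed differently was not tested. Of the 42 mitosis genes, 13 (31.0%) are written with 6 decimals, and these are named with the results.

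**Figure D1:**
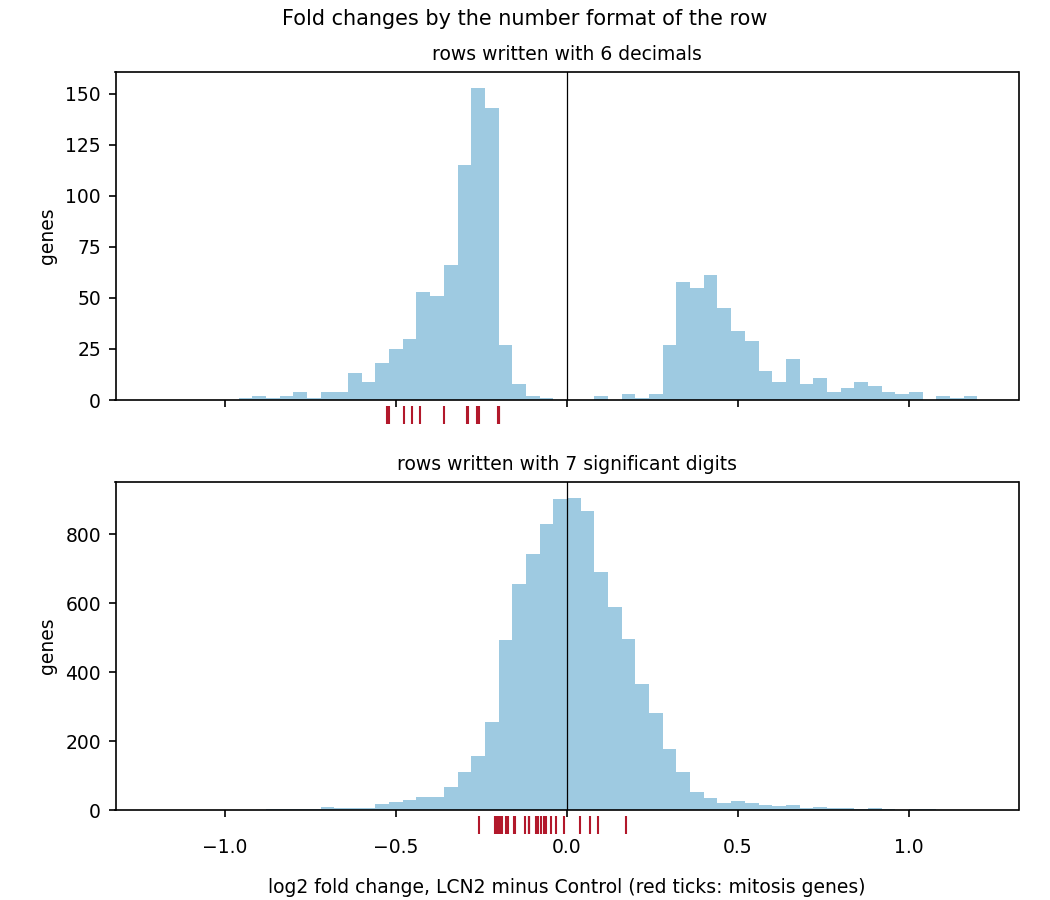
Histograms of the log2 fold change (LCN2 minus Control, x axis, with axis limits near -1.3 and 1.3) over the genes tested (y axis, number of genes). Above are the 1170 rows written with 6 decimals and below the 9139 rows written with 7 significant digits. The outermost bins end short of the axis limits, and genes beyond those bins are not drawn (fold changes reach -3.53 and 2.58). Red ticks mark the mitosis genes, 13 above and 29 below. The upper histogram is nearly empty around 0, while the lower one is centred there. Rows of low values, whose format cannot be told, are in the lower histogram.

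The promoters of the set were read from RefSeq windows of 300 bases (GRCm38.p6), 250 before and 50 after each annotated start. Entries were found for 35 of the 42 genes (38 windows, since 3 genes have 2), and not for *Ccna2*, *Cdc25c*, *Aurkb*, *Incenp*, *Kif20a*, *Tpx2* and *Foxm1*. The CHR was searched as TTTGAA on either strand or TTCGAA, and the box bound by the factor NF-Y as CCAAT on either strand. Neither motif contains the other. The 3 promoters below belong to the genes with the smallest adjusted p among those that fell and hold a CHR, with motif letters in capitals. Each runs 5′ to 3′ on the gene's own strand for 280 bases and ends 30 bases into the transcript.
Bub1b: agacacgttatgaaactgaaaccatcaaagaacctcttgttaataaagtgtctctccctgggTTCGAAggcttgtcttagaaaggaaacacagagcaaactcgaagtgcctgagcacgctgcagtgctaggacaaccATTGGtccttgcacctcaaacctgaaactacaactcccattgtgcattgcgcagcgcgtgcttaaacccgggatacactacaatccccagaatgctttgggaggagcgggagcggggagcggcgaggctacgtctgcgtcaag
Mki67: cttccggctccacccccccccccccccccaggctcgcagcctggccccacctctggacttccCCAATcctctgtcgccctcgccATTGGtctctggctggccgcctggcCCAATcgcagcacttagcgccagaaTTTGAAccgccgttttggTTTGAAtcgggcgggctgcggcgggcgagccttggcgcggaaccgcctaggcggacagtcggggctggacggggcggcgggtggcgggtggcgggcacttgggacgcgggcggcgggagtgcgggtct
Cenpf: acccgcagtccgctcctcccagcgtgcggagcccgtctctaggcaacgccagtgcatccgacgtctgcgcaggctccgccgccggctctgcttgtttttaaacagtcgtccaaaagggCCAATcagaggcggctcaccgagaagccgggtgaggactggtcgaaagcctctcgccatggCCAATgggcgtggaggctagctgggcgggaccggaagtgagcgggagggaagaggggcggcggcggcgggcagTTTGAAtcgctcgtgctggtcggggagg

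The *Bub1b* stretch is chr2:118597961-118598240 on the plus strand. It shows TTCGAA beginning at position -188 and the reverse complement of the NF-Y box, ATTGG, at -113, counted from 0 at the first transcribed base, and a further TTTGAA lies at 40, beyond the printed bases. The *Mki67* stretch is chr7:135716350-135716629 on the minus strand. There TTTGAA begins at -116 and at -98, with NF-Y boxes at -188, -166 and -141. The *Cenpf* stretch is chr1:189688057-189688336 on the minus strand, with TTTGAA at 2 and NF-Y boxes at -132 and -71.

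Across the set, 27 of 35 genes (77.1%) held a CHR, against 16.6% of the 8284 genes tested that have a promoter entry and 21.7% of all 27025 genes in the promoter table. Within 50 bases of the start, a distance chosen after the positions were seen, it was held by 25 (71.4%), against 4.53% of genes tested and 6.12% of all genes. An NF-Y box was held by 25 of 35 (71.4%), against 43.6% of genes tested and 41.1% of all genes, and both motifs by 23 (65.7%), against 7.23% and 8.61%. Genes of DNA replication, a list of 33 S phase genes, held a CHR in 6 of 25 promoters (24.0%). A CHR was held by 8 of 10 mitosis genes that fell (80.0%) and by 19 of 25 that did not pass the test (76.0%), and within 50 bases of the start by 6 of 10 (60.0%) and 19 of 25 (76.0%), differences that were not tested. These matches are descriptions of letters in a window.

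**Figure D2:**
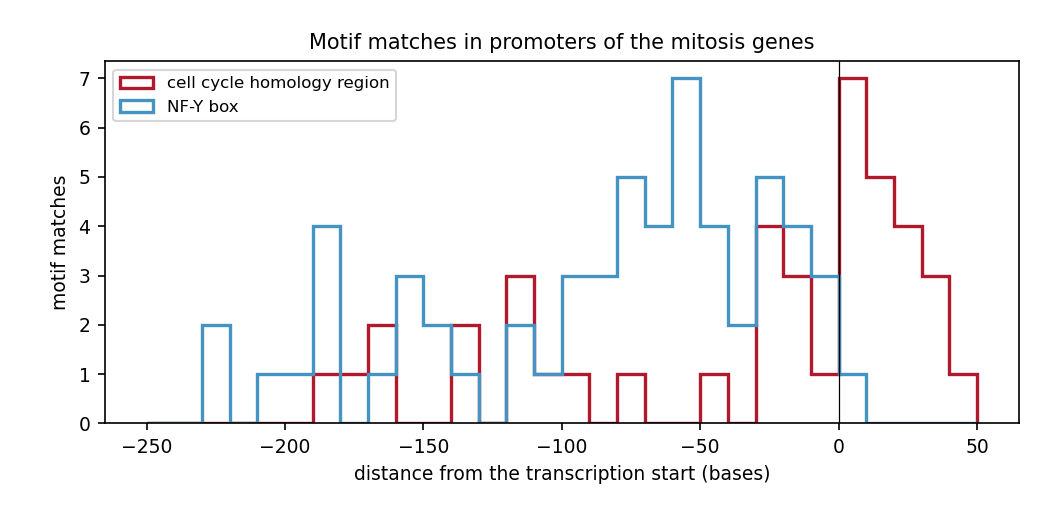
Number of motif matches (y axis) by distance in bases from the transcription start (x axis, bins of 10 bases) in the 38 promoter windows of the 35 mitosis genes with an entry. Matches were counted in each window, so for the 3 genes with 2 windows a site lying in both enters more than once. Red is the cell cycle homology region and blue the NF-Y box; CHR matches crowd around the start and NF-Y boxes lie mostly before it.

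Mitosis genes were lower in LCN2 cells than in Control cells in 14 cases and higher in none. Of the 42 genes, 14 fell (33.3%), against 9.73% of all 10309 genes tested, and 0 rose, against 11.8% of all genes (limma on log2(FPKM + 1), Benjamini-Hochberg adjusted p under 0.05). In either direction, 27 of 42 were at an unadjusted p under 0.05, against 4026 of the 10309 genes tested. *Ndc80* and *Prc1*, with fold changes above 0, were among the 27. The 14 fell by between 11.3% and 30.7% after scaling, with the largest falls in *Aurkb*, *Kif20a*, *Plk1*, *Incenp* and *Bub1b*. The log2 fold change (LCN2 minus Control) was below 0 for 38 of 42 genes (90.5%), against 49.8% of all genes, and its median was -0.18, against 0.0008 over all genes. After scaling, all 3 LCN2 libraries lay below all 3 Control libraries for 22 genes (52.4%), against 21.6% of all genes. They lay above for 3 genes, *Prc1*, *Ndc80* and *Ect2*, against 23% of all genes.

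**Figure D3:**
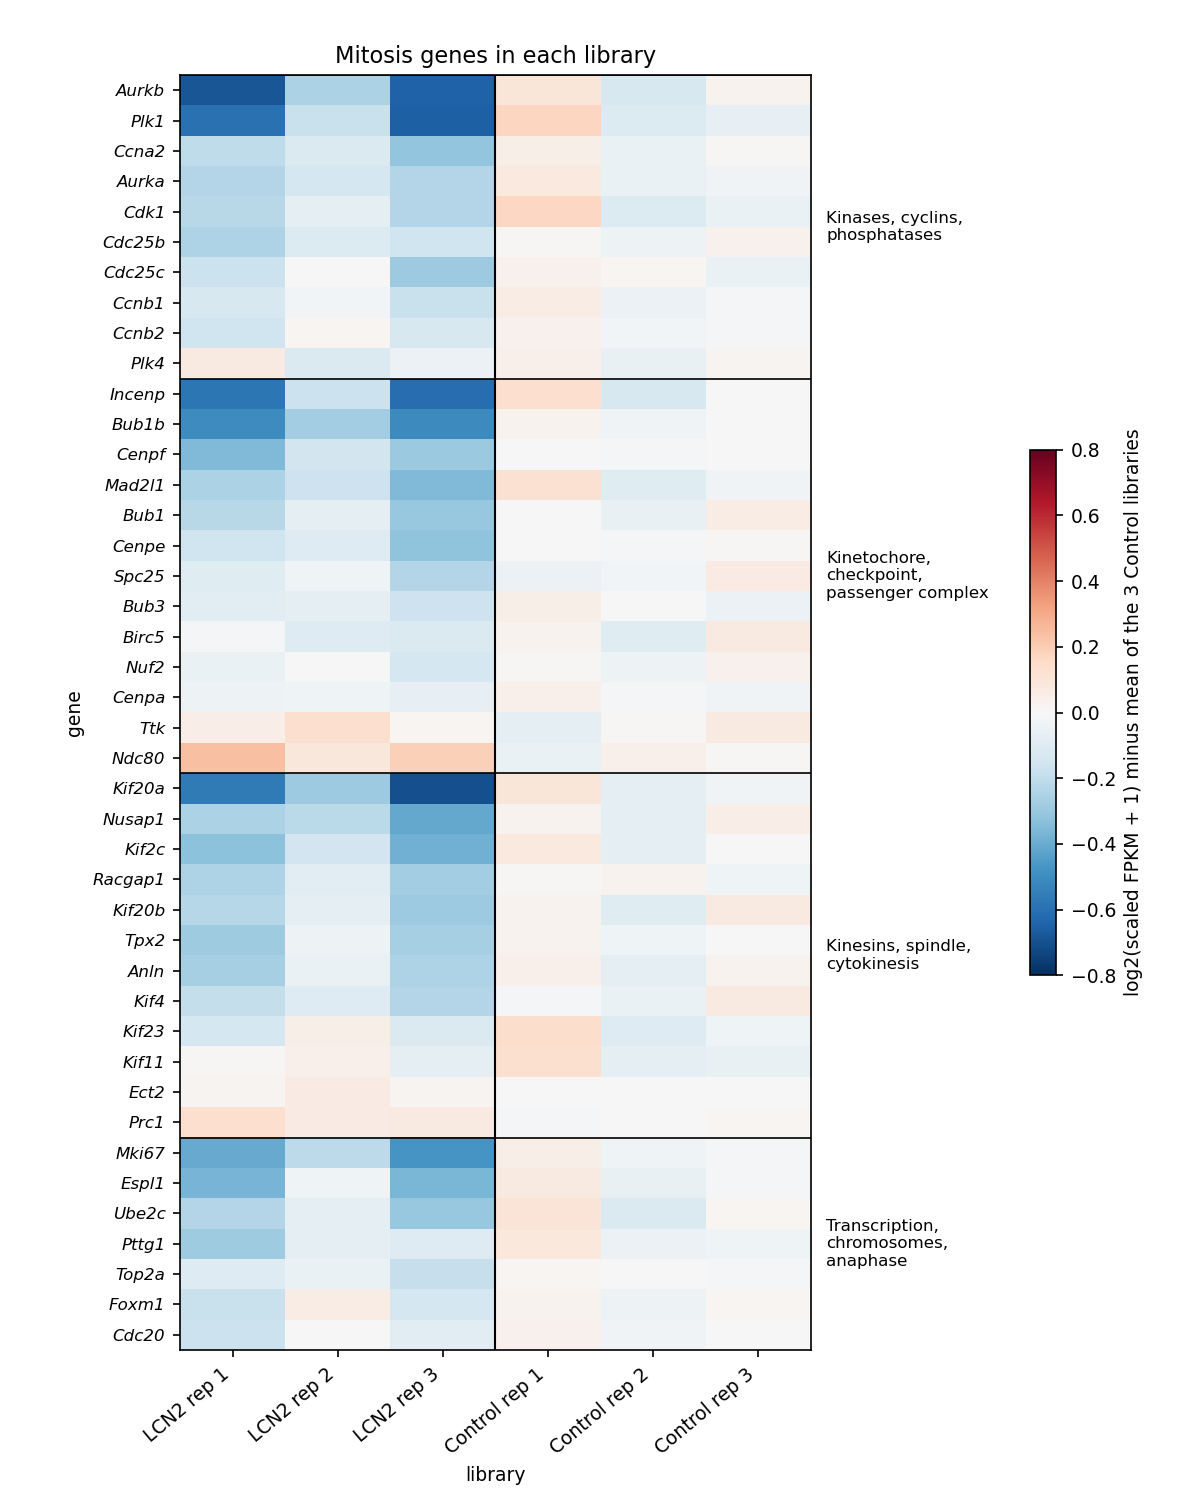
Each row is 1 of the 42 mitosis genes and each column 1 library, LCN2 left of Control. Colour is log2(scaled FPKM + 1) minus the mean of the 3 Control libraries, blue for lower and red for higher; LCN2 replicates 1 and 3 are darker blue than LCN2 replicate 2 for most genes.

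The calls rest on several libraries. No call held in all 6 fits that leave out 1 library. Of the 14, 14 missed the threshold without LCN2 replicate 1, and 13 each without LCN2 replicate 3, Control replicate 1 or Control replicate 3. Without Control replicate 2, 5 missed it, and without LCN2 replicate 2, 0. In that last fit limma called 27 members lower (64.3%) and 1 higher. Over all 10307 genes of that fit, 14.6% were called lower and 1659 genes higher. Between 36 and 38 of the 42 fold changes stayed below 0 in these fits, and the median stayed between -0.23 and -0.15. Of the 14 genes, 10 are written with 6 decimals, and among the other 29 members 4 of 29 fell, against 4.73% of the 9139 tested rows of that format. Of these 29, 25 had a fold change below 0, with a median of -0.11, against 48.2% and 0.0077 over the rows of that format. Because the format goes with the size of the difference itself, these shares describe the rows and are no test of the format. The 9139 rows also include those of low values, whose format cannot be told. With no scaling between libraries 25 members fell, along with 1680 genes in all against 693 that rose (70.8% of calls lower, against 45.3% with scaling), and the median of all genes was then -0.06.

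**Figure D4:**
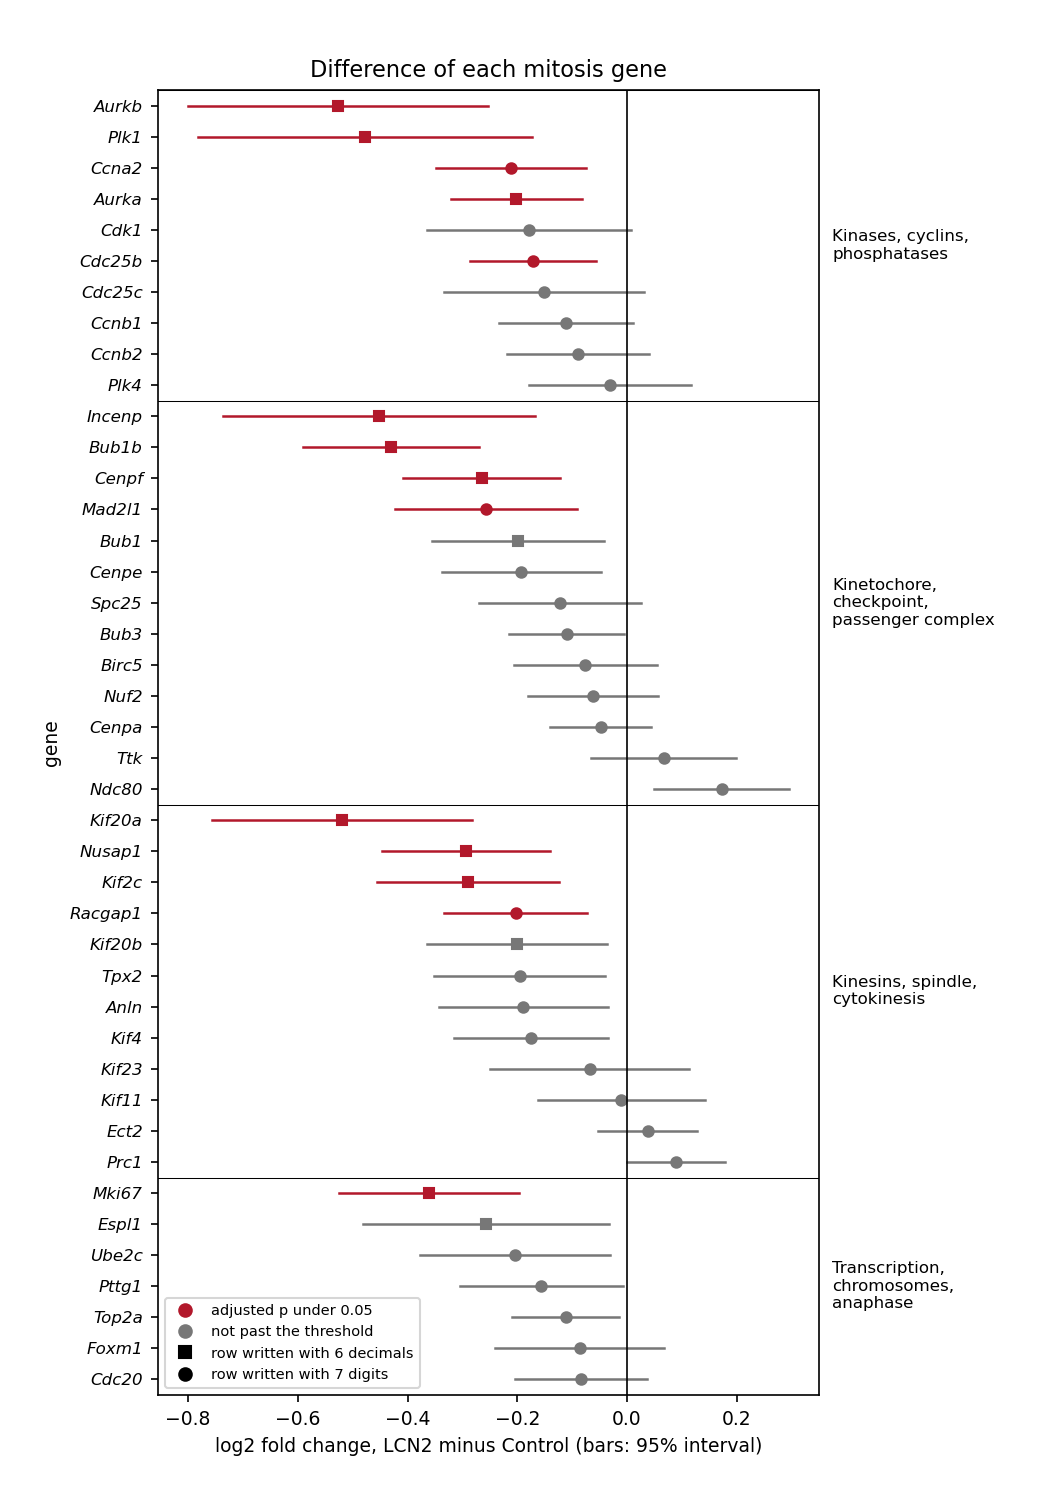
The log2 fold change of each mitosis gene, LCN2 minus Control (x axis), with its 95% interval as a bar, grouped by role. Red marks genes at an adjusted p under 0.05, squares the 13 rows written with 6 decimals; 38 of 42 points lie left of 0.

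Among the 10 kinases, cyclins and phosphatases of the set, 5 fell (50%), 0 rose and all 10 fold changes were below 0 (median -0.17). The counts of the role groups are small and are read against the shares over all genes, 9.73% lower and 11.8% higher. *Aurkb* encodes Aurora B, the kinase of the chromosomal passenger complex, which corrects faulty attachments (chr11:69045647-69051664). Its level was 30.7, 42.5 and 31.5 FPKM in LCN2 replicates 1, 2 and 3, against 55.1, 49.9 and 52.5 FPKM in Control. LCN2 replicate 2 was nearest to the Control libraries, and the groups did not overlap. The means were 34.9 ± 6.58 and 52.5 ± 2.62 FPKM (SD, n = 3 each), a log2 fold change of -0.53 (SE 0.12, limma adjusted p = 0.0226).

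*Plk1*, the polo-like kinase of centrosome maturation and spindle assembly (chr7:122159439-122169873), was at 42.3, 57.7 and 40.4 FPKM in LCN2 cells, against 74.7, 65.2 and 63.5 FPKM in Control cells. Again LCN2 replicate 2 stood above the other LCN2 libraries and below every Control library. The fold change was -0.48 (SE 0.13, limma adjusted p = 0.0397). *Aurka*, the Aurora kinase of the spindle poles, was at 49.9, 54.1 and 49.7 FPKM in LCN2 cells, against 63.9, 61.8 and 59.4 FPKM in Control cells. Its groups were apart by several FPKM, with a fold change of -0.20 (SE 0.05, limma adjusted p = 0.0321). *Ccna2*, cyclin A2, which acts in S phase and G2, was at 50.7, 54.9 and 46.7 FPKM, against 62.2, 61.5 and 60.8 FPKM in Control. The Control values lay close together and every LCN2 value was below them (-0.21, SE 0.06, limma adjusted p = 0.0413). *Cdc25b*, the phosphatase that starts CDK1 activation at the centrosome, was at 44.3, 49.7 and 47.1 FPKM in LCN2 cells, against 54.7, 56.0 and 55.8 FPKM in Control cells. Its fall was the smallest of the 14, at -0.17 (SE 0.05, limma adjusted p = 0.0448).

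*Ccnb1*, cyclin B1, the main mitotic partner of CDK1 and the most abundant of the 10, was at 69.2, 75.6 and 66.6 FPKM in LCN2 cells, against 81.4, 80.2 and 77.1 FPKM in Control cells. These groups did not overlap as deposited but did after scaling, and the fold change of -0.11 missed the threshold (SE 0.05, limma adjusted p = 0.156). *Plk4*, the kinase of centriole duplication and the least abundant, was at 13.1, 11.5 and 11.9 FPKM, against 13.1, 13.0 and 13.0 FPKM in Control. LCN2 replicate 1 was level with the Control libraries, and the fold change was -0.03 (SE 0.06, limma adjusted p = 0.745). *Cdk1* itself had a fold change of -0.18 (limma adjusted p = 0.140), the phosphatase gene *Cdc25c* -0.15 (limma adjusted p = 0.190) and the second B-type cyclin, *Ccnb2*, -0.09 (limma adjusted p = 0.266). Each of the 5 calls was lost without LCN2 replicate 1 or 3 or without Control replicate 1 or 3, with limma adjusted p between 0.0743 and 0.149, and 3 were lost without Control replicate 2. Without LCN2 replicate 2, limma called 8 of the 10, against 3160 of the 10307 genes tested in that fit. *Aurkb*, *Plk1* and *Aurka* are rows with 6 decimals. Exons of *Ccna2*, *Cdc25b* and *Plk1* overlap a gene on the other strand (*Exosc9*, *Spef1* and *Gm44985*), and how strand was counted is not given in the sources used here.

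Of the 13 genes of the kinetochore, the spindle checkpoint and the passenger complex, 4 fell (30.8%, against 9.73% of all genes) and 0 rose. In this group 11 fold changes were below 0 (median -0.12). *Bub1b* encodes BUBR1, a checkpoint protein that inhibits the anaphase-promoting complex, and had the smallest adjusted p of the 42 genes. Its level was 22.8, 27.3 and 22.7 FPKM in LCN2 cells, against 34.4, 35.1 and 33.7 FPKM in Control cells. The 3 Control values were nearly equal and all LCN2 values lay well below them. The means were 24.3 ± 2.63 and 34.4 ± 0.664 FPKM (SD, n = 3 each), a fold change of -0.43 (SE 0.07, limma adjusted p = 0.0105). Leaving out libraries 1 at a time, *Bub1b* missed the threshold without LCN2 replicate 1 (limma adjusted p = 0.0526) and passed in the other 5 fits.

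*Incenp*, the scaffold of the passenger complex (chr19:9872296-9899551), was at 36.0, 48.8 and 35.0 FPKM in LCN2 cells, against 61.2, 54.0 and 55.7 FPKM in Control cells. As for *Aurkb*, LCN2 replicate 2 was nearest to Control, with a fold change of -0.45 (SE 0.12, limma adjusted p = 0.0381). *Mad2l1*, the checkpoint protein MAD2, was at 42.2, 45.6 and 39.1 FPKM in LCN2 cells, against 56.6, 51.4 and 51.0 FPKM in Control cells. Its groups did not overlap, and the fold change was -0.26 (SE 0.07, limma adjusted p = 0.0411). *Cenpf*, a large outer kinetochore protein and the least abundant of the 13, was at 12.6, 14.9 and 13.1 FPKM, against 16.8, 17.7 and 16.9 FPKM in Control. All LCN2 values lay below all Control values (-0.26, SE 0.06, limma adjusted p = 0.0253). *Bub1b*, *Incenp*, *Cenpf* and the uncalled *Bub1* are rows with 6 decimals, and *Mad2l1* is not.

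*Ndc80*, the microtubule-binding subunit of the outer kinetochore, went the other way, at 38.3, 34.9 and 36.7 FPKM in LCN2 cells, against 31.9, 36.2 and 33.5 FPKM in Control cells. The groups overlapped as deposited and did not after scaling, and the fold change of 0.17 missed the threshold (SE 0.05, limma adjusted p = 0.0539). Without LCN2 replicate 2 it passed (0.21, limma adjusted p = 0.0189). *Birc5*, survivin, the most abundant of the 13 and a partner of Aurora B and INCENP, was at 82.9, 78.6 and 76.6 FPKM in LCN2 cells, against 87.2, 84.8 and 90.3 FPKM in Control cells. It was lower in every LCN2 library as deposited but overlapped after scaling (-0.08, SE 0.06, limma adjusted p = 0.347).

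The other members of this group ran as follows. *Bub1*, a checkpoint kinase, had a fold change of -0.20 (limma adjusted p = 0.0716) and *Cenpe*, a kinetochore motor, -0.19 (limma adjusted p = 0.0623). *Spc25*, a subunit of the NDC80 complex, had -0.12 (limma adjusted p = 0.195), and the checkpoint gene *Bub3* had -0.11 (limma adjusted p = 0.112). *Nuf2*, the direct partner of NDC80, was at -0.06, *Cenpa*, the centromeric histone, at -0.05, and *Ttk*, the checkpoint kinase MPS1, at 0.07, with limma adjusted p between 0.395 and 0.419. Without Control replicate 1, Control replicate 3 or LCN2 replicate 3, *Bub1b* alone of the 4 stayed past the threshold (limma adjusted p of the 4 between 0.0395 and 0.132), and without Control replicate 2 *Cenpf* was lost (limma adjusted p = 0.0507).

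Of the 12 kinesins and other genes of the spindle and of cytokinesis, 4 fell (33.3%, against 9.73% of all genes) and 0 rose. Their fold change was below 0 in 10 (median -0.19). *Kif20a*, a kinesin that brings the passenger complex and PLK1 to the central spindle (chr18:34624613-34633277), was at 31.1, 38.3 and 28.0 FPKM in LCN2 cells, against 51.1, 48.2 and 46.9 FPKM in Control cells. Even the highest LCN2 library was below the lowest Control library. The means were 32.5 ± 5.28 and 48.7 ± 2.16 FPKM (SD, n = 3 each), a fold change of -0.52 (SE 0.10, limma adjusted p = 0.0164). *Nusap1*, which bundles spindle microtubules near chromosomes, was at 19.6, 20.4 and 17.4 FPKM in LCN2 cells, against 24.6, 24.2 and 25.2 FPKM in Control cells. All LCN2 libraries were lower than every Control library, LCN2 replicate 3 the most (-0.29, SE 0.07, limma adjusted p = 0.0229).

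*Kif2c*, the microtubule-depolymerising kinesin MCAK, was at 29.3, 33.8 and 28.0 FPKM in LCN2 cells, against 40.3, 38.2 and 38.2 FPKM in Control cells. Its groups did not overlap (-0.29, SE 0.07, limma adjusted p = 0.0300). *Racgap1*, a subunit of the centralspindlin complex that sets the cleavage plane and the most abundant of the 12, was at 85.4, 97.0 and 83.3 FPKM, against 104.9, 112.8 and 102.1 FPKM in Control. LCN2 replicate 2 came closest to the Control values without reaching them (-0.20, SE 0.06, limma adjusted p = 0.0403). *Tpx2*, which activates Aurora A on the spindle, was at 50.9, 61.2 and 51.3 FPKM in LCN2 cells, against 65.1, 66.2 and 64.0 FPKM in Control cells. The groups did not overlap, yet the fold change of -0.20 missed the threshold (SE 0.07, limma adjusted p = 0.0732). *Kif4*, a chromosome-bound kinesin and the least abundant of all 42, was at 8.90, 9.63 and 8.54 FPKM, against 10.4, 10.7 and 11.2 FPKM in Control. It too had no overlap without a call (limma adjusted p = 0.0747).

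*Anln*, the actin-binding anillin of the cleavage furrow, had a fold change of -0.19 (limma adjusted p = 0.0774) and *Kif20b*, a kinesin of abscission, -0.20 (limma adjusted p = 0.0784). *Prc1*, the bundler of the central spindle, did not follow, at 70.1, 67.7 and 66.7 FPKM in LCN2 cells, against 64.7, 69.8 and 66.3 FPKM in Control cells. Its groups overlapped as deposited, and after scaling the fold change was 0.09 (SE 0.04, limma adjusted p = 0.126). *Ect2*, the activator of RHOA at the furrow, had 0.04 (limma adjusted p = 0.503), which was -0.024 without scaling. *Kif23*, the kinesin partner of RACGAP1 in centralspindlin, had -0.07 (limma adjusted p = 0.549), and *Kif11*, the motor that separates spindle poles, -0.01 (limma adjusted p = 0.923). None of the 4 calls held without LCN2 replicate 1 or 3 or Control replicate 1 or 3 (limma adjusted p between 0.0549 and 0.138), and *Racgap1* was also lost without Control replicate 2 (limma adjusted p = 0.0864). *Kif20a*, *Nusap1*, *Kif2c* and the uncalled *Kif20b* are rows with 6 decimals and *Racgap1* is not. Exons of *Kif20a* overlap *Cdc23* and those of *Nusap1* overlap *Oip5*, each on the other strand. Over all 42 members, 12 have exons that overlap another gene, 5 of them called. The uncalled ones are *Cdc25c*, *Kif4*, *Prc1*, *Cdc20* and *Ube2c*, on the other strand, and *Foxm1* and *Top2a*, on the same strand. *Ccnb1*, *Ccnb2* and *Kif4* each have a pseudogene named for them.

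The last 7 genes act in transcription, chromosome structure and anaphase. Of these, 1 fell (14.3%), near the 9.73% of all genes, 0 rose and all 7 fold changes were below 0 (median -0.16). *Mki67* encodes Ki-67, the coat protein of mitotic chromosomes and the standard stain for proliferating cells. It was at 28.1, 32.7 and 26.6 FPKM in LCN2 cells, against 39.8, 39.8 and 38.3 FPKM in Control cells. The groups were far apart relative to their spread. The means were 29.2 ± 3.17 and 39.3 ± 0.858 FPKM (SD, n = 3 each), a fold change of -0.36 (SE 0.07, limma adjusted p = 0.0160). This row has 6 decimals, and the call was lost without LCN2 replicate 1 or 3 or Control replicate 1 or 3 (limma adjusted p between 0.0577 and 0.0702).

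*Ube2c*, the ubiquitin-conjugating enzyme of the anaphase-promoting complex and the most abundant of the 42, was at 181.4, 205.5 and 171.6 FPKM in LCN2 cells, against 235.1, 214.6 and 221.9 FPKM in Control cells. As deposited every LCN2 value was lower, but the groups overlapped after scaling (-0.20, SE 0.07, limma adjusted p = 0.0848). *Top2a*, the topoisomerase that untangles chromosomes, was at 167.6, 175.7 and 157.7 FPKM, against 187.0, 195.5 and 183.3 FPKM in Control. It showed no overlap, with a fold change of -0.11 (SE 0.04, limma adjusted p = 0.0909). *Espl1*, separase, the protease that parts sister chromatids and the least abundant of the 7, was at 9.91, 13.0 and 9.94 FPKM in LCN2 cells, against 14.2, 13.7 and 13.4 FPKM in Control cells. LCN2 replicate 2 was near Control and the other LCN2 libraries were lower (-0.26, SE 0.10, limma adjusted p = 0.0916), and this row has 6 decimals. *Pttg1*, securin, its inhibitor, was at 105.6, 123.2 and 118.8 FPKM, against 140.0, 135.6 and 129.0 FPKM in Control. Here LCN2 replicate 1 was the lowest, and the fold change was -0.16 (SE 0.06, limma adjusted p = 0.114). *Cdc20*, which activates the anaphase-promoting complex, had -0.08 (limma adjusted p = 0.263), and *Foxm1*, the transcription factor of G2 genes, -0.09 (limma adjusted p = 0.367).

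**Figure D5:**
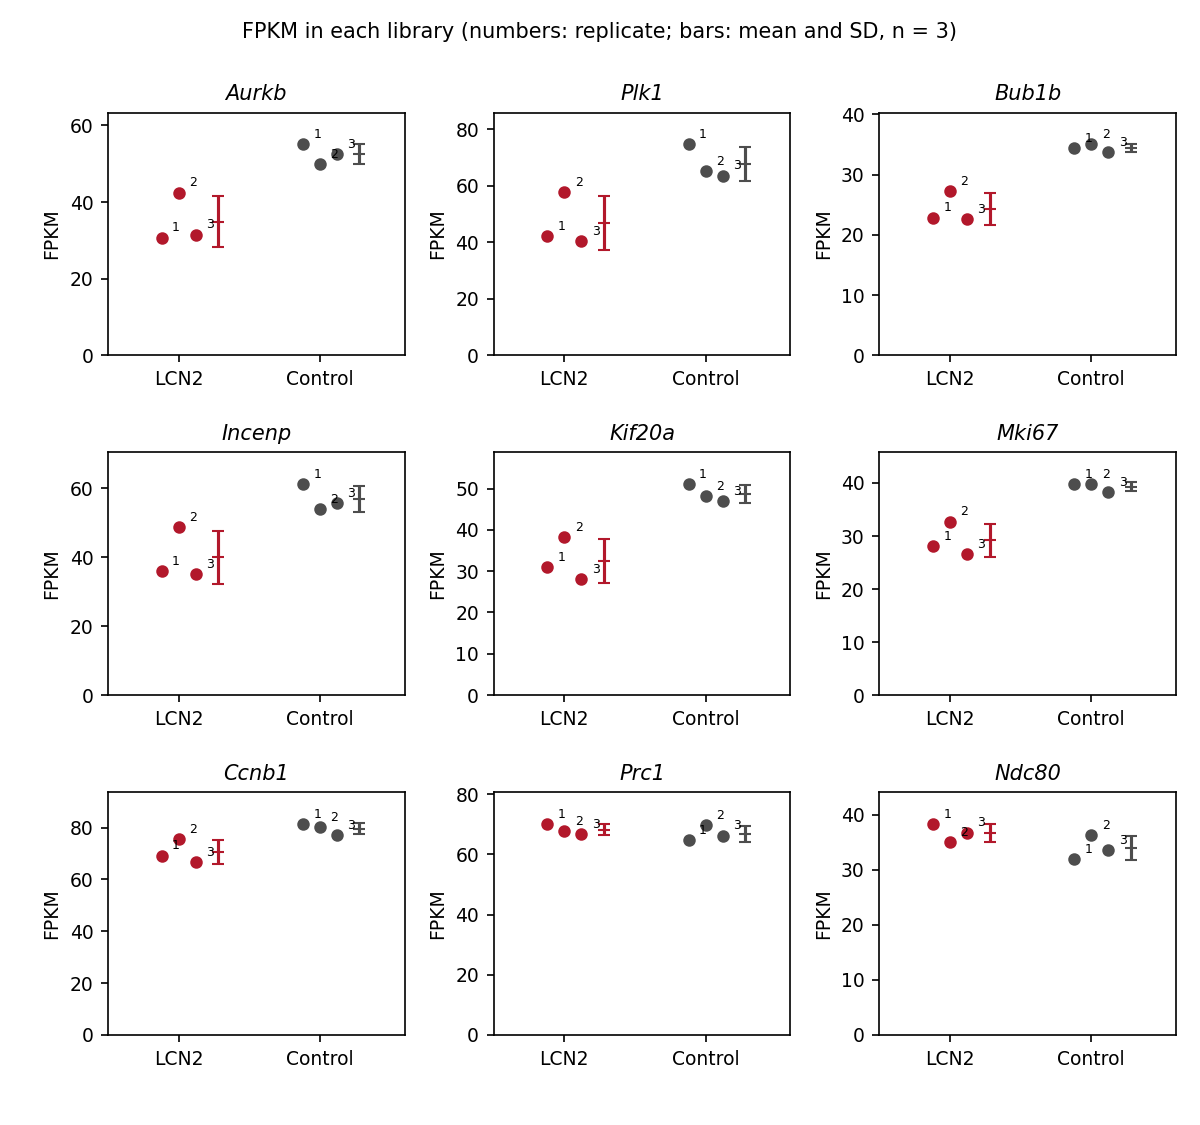
FPKM as deposited (y axis, from 0) in each LCN2 and Control library for 9 mitosis genes, with the replicate number beside each point and bars for mean and SD (n = 3). In the first 6 panels all LCN2 points lie below all Control points, *Ccnb1* is lower by less, and *Prc1* and *Ndc80* overlap.

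Partners in 1 complex were also compared through log2 ratios of FPKM within a library. The 5 ratios were chosen after the values were seen, and 3 libraries against 3 cannot give an exact two-sided permutation p below 0.1, so the ratios are descriptions and none could pass a threshold of 0.05. *Aurkb* over *Birc5* was -1.43, -0.89 and -1.28 in LCN2 cells, against -0.66, -0.77 and -0.78 in Control cells. It was lower in every LCN2 library, with a difference of -0.46 (exact permutation p = 0.1, adjusted over the 5 ratios 0.167). *Incenp* over *Birc5* differed by -0.39 with overlap (exact permutation p = 0.2). *Bub1b* over *Bub3* was -1.45, -1.22 and -1.37, against -1.03, -1.04 and -0.97 in Control, a difference of -0.33 with no overlap (exact permutation p = 0.1). *Ndc80* over *Nuf2* was 0.01, -0.20 and 0.05, against -0.35, -0.20 and -0.31 in Control, where LCN2 replicate 2 and Control replicate 2 were nearly equal (difference 0.24, exact permutation p = 0.1). *Racgap1* over *Kif23* differed by -0.13 with overlap (exact permutation p = 0.2).

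Other genes of mitosis, 119 tested of 120 listed, held 27 genes that fell (22.7%), against 9.73% of all genes, and 3 that rose, against 11.8% of all genes, with a median fold change of -0.08. Of the 119, 28 (23.5%) are rows with 6 decimals, and these hold 23 of the 30 calls. Rows of low values, whose format cannot be told, are not among the 28. The counts of the single lists are small and are read against the same shares. Among 14 genes of entry into mitosis, 3 fell and 1 rose. In these lists, genes beyond the leading pair were named because few were called, after their values were seen. *Melk*, a kinase of proliferating cells, was at 16.3 ± 3.39 FPKM in LCN2 cells and 25.8 ± 1.47 FPKM in Control cells (SD, n = 3 each; -0.59, limma adjusted p = 0.0212). *Pkmyt1*, the kinase that holds CDK1 inactive, rose, at 16.8 ± 0.359 FPKM in LCN2 cells and 14.5 ± 0.873 FPKM in Control cells (0.26, limma adjusted p = 0.0143). The other two that fell were *Nek2*, a centrosomal kinase (-0.37, limma adjusted p = 0.0230), and *Ccnf*, cyclin F (-0.36, limma adjusted p = 0.0458). Of 34 further kinetochore and checkpoint genes 8 fell and 0 rose, led by *Spc24*, the partner of SPC25, at 14.7 ± 0.760 FPKM in LCN2 cells and 19.7 ± 1.03 FPKM in Control cells (-0.34, limma adjusted p = 0.00957). That call held in all 6 fits that leave out a library (limma adjusted p at most 0.0441). It was lost with a replicate block (limma adjusted p = 0.0514). *Cdca8*, borealin, the remaining passenger subunit, singled out after its value was seen, was at 63.9 ± 2.71 FPKM in LCN2 cells and 63.4 ± 2.17 FPKM in Control cells (0.08, limma adjusted p = 0.234).

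In the anaphase-promoting complex, 3 of 17 genes fell and 1 rose, with the subunit genes *Anapc4* at -0.31 (limma adjusted p = 0.0198) and *Anapc2* at -0.27 (limma adjusted p = 0.0352). *Fbxo5*, the inhibitor EMI1, had -0.26 (limma adjusted p = 0.0474). The gene that rose was *Anapc16*, another subunit, at 34.8 ± 3.43 FPKM in LCN2 cells and 28.8 ± 3.42 FPKM in Control cells (SD, n = 3 each; 0.33, limma adjusted p = 0.0392). Its groups overlapped as deposited. The call was lost with no scaling (limma adjusted p = 0.0763), equal column sums (0.0520), no filter (0.0729), no variance trend (0.0528) or a replicate block (0.105). Of 8 condensin genes, 3 fell and 0 rose, among them *Ncapd2*, at 36.9 ± 4.56 FPKM in LCN2 cells and 53.8 ± 1.09 FPKM in Control cells (-0.48, limma adjusted p = 0.0117), *Ncapg* (-0.23, limma adjusted p = 0.0207) and *Ncaph2* (-0.32, limma adjusted p = 0.0262). Of 34 further spindle and cytokinesis genes, 8 fell and 1 rose, among them *Gtse1*, a microtubule-binding protein of G2 and S phase (-0.48, limma adjusted p = 0.0172), and the minus-end kinesin gene *Kifc1* (-0.35, limma adjusted p = 0.0251). The riser was *Haus6*, an augmin subunit (0.27, limma adjusted p = 0.0400). Its call was lost with no scaling (limma adjusted p = 0.108), equal column sums (0.0649), no filter (0.0715) or a replicate block (0.0958). It was also lost when only rows with 7 significant digits were fitted (limma adjusted p = 0.0627). Of 12 DREAM and MYB-MuvB genes tested, 2 fell and 0 rose, *Tfdp1*, the partner of E2F factors (-0.32, limma adjusted p = 0.0147), and *Lin37*, a MuvB subunit (-0.36, limma adjusted p = 0.0319). Of all the called genes named outside the 42, *Spc24* alone was called in each fit that leaves out a library. The rest were lost without LCN2 replicate 1 and without Control replicate 3, and, *Ncapd2* excepted, without LCN2 replicate 3 and without Control replicate 1 (limma adjusted p at most 0.151 over these fits). *Anapc2*, *Nek2* and *Fbxo5* were lost without Control replicate 2 as well, and *Haus6* without LCN2 replicate 2.

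The mitosis genes and a list of 33 DNA replication genes of S phase gave similar counts. Of the mitosis genes 14 of 42 fell (33.3%), and of the S phase genes 11 of 33 (33.3%). The fold change was below 0 in 90.5% of the mitosis genes (median -0.18) and in 87.9% of the S phase genes (median -0.16). No mitosis gene rose, whereas 1 S phase gene did, *Gins1*, a subunit of the replicative helicase (0.20, limma adjusted p = 0.0158). That call was lost with no scaling (0.14, limma adjusted p = 0.0992) or with a replicate block (limma adjusted p = 0.0715). Rows with 6 decimals numbered 13 of 42 and 11 of 33. The difference between both lists was not tested.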

How the data were processed

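Polyadenylated RNA of 6 EO771 libraries (3 LCN2, 3 Control) was sequenced after SMARTer library preparation, per the labels' protocols. The authors deposited 1 table whose name describes raw counts. None of its values above 0 is whole (tolerance 1e-09), and they were treated as FPKM. That unit was inferred from the deposited values, so the depth is unknown and no counting interval is given. The build is GRCm38, per the submitters' processing notes. No aligner or quantifier is named in the sources used here.

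Values were scaled by unweighted TMM (trims 0.3 and 0.05, factors 0.970 to 1.06), and log2(FPKM + 1) was fitted with limma 3.58.1 (R 4.3.3, variance trend, no replicate term) over the 10309 genes averaging 1 FPKM or more. A fold change is LCN2 minus Control on that scale, which understates changes of low genes. Calls are two-sided, at a Benjamini-Hochberg adjusted p under 0.05. Means ± SD are of FPKM as deposited, and percent falls are after scaling. The script was tested on simulated data. Gene positions are from GENCODE M21. The 42 members, the lists and the fit were chosen with earlier results of these data known.

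Members with values per library are, in each role group, the 5 with the smallest adjusted p and the most and least abundant, and *Prc1*, added after its values were seen. Other mitosis lists name the 2 called genes with the smallest adjusted p, 1 of which is not reported here, and, chosen after their values were seen, calls of a direction with 5 or fewer in its list, also for S phase, and *Cdca8*. Alternatives were 4 other scalings, 2 pseudocounts, 2 filters, no trend, a replicate block, leaving out each library and, added after the data were seen, fitting rows with 7 significant digits only.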

Additional observations from a re-analysis of the deposited data

How the results depend on the processing

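The median fold change of the 42 genes stayed below 0 under all 17 alternatives. Against 14 members called, all lower, there were 25 (all lower) with no scaling, 6 with no filter, 7 without the variance trend, and 0 on rows with 7 significant digits only (15 of 29 at an unadjusted p under 0.05, against 3019 of 9139 genes). That last fit leaves out most genes with a large difference by its construction. Lost with no filter were *Aurkb*, *Plk1*, *Ccna2*, *Cdc25b*, *Incenp*, *Mad2l1*, *Kif2c* and *Racgap1* (limma adjusted p at most 0.0776), and without the trend *Aurka*, *Plk1*, *Ccna2*, *Cdc25b*, *Incenp*, *Mad2l1* and *Racgap1* (at most 0.0689). Of the genes named outside the 42 and below Control, *Anapc2*, *Fbxo5*, *Ncaph2*, *Kifc1*, *Ccnf* and *Lin37* were lost with no filter (limma adjusted p at most 0.0836). *Fbxo5* and *Ccnf* were lost also without the trend (0.0626 and 0.0583) or with a filter at 0.1 FPKM (0.0514 and 0.0509). *Lin37* was lost also on rows with 7 significant digits only (limma adjusted p = 0.0522). All genes called numbered 1472 with no filter and 593 on those rows, against 2216. Leaving out 1 library gave 0 to 28 members called, 0 to 27 of them lower, and 268 to 3160 genes in all, the highest without LCN2 replicate 2 and the lowest without LCN2 replicate 1, where 16 members were at an unadjusted p under 0.05, against 2947 of 10306 genes.

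Deviations of same-numbered libraries correlated at -0.22, -0.26 and 0.0086 for numbers 1, 2 and 3, and 0 of 6 libraries correlated best with its own number. So few libraries cannot settle whether the numbers pair them, and the labels do not say what the numbers mark. With a replicate block limma called 0 members (18 at an unadjusted p under 0.05, against 3348 of 10309 genes) and 262 genes. All called genes named outside the set were lost in that fit too, *Spc24* among them (limma adjusted p between 0.0514 and 0.12).

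Fold changes that turned sign were those of *Ect2* (-0.024 without scaling) and, when 1 library was left out, *Kif11* (-0.046 to 0.054; 0.024 without LCN2 replicate 3, the highest without Control replicate 1), *Kif23* (-0.127 to 0.00062, the highest without Control replicate 1) and *Plk4* (-0.083 to 0.012, the highest without LCN2 replicate 2). None of these passed the test in any fit. The cause of these changes was not tested, beyond the fewer samples, genes or degrees of freedom in some fits. With no read counts, what depth limits could not be assessed.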
